A study of Mus musculus with 18 samples.

Results

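The Sprouty and Spred genes and Il17rd encode intracellular and membrane inhibitors of growth factor signaling, and their transcripts were followed in mouse brown preadipocytes given fibroblast growth factor 6 (FGF6). The 7 genes are Spry1, Spry2, Spry4, Spred1, Spred2, Spred3, and Il17rd. They were found in the deposited count table by their Ensembl identifiers and were 7 of 48023 rows, and 7 of the 15071 genes with enough counts to be tested, so that no member was lost to the filter on low counts. The cells were an immortalized murine line that came from stromal cells of brown fat, and in all groups they were kept in growth medium with serum. Vehicle (Veh) or FGF6 (200 ng/ml) was added, and total RNA was taken after 4, 8, or 24 h. Each of the 6 combinations of treatment and time had 3 sequenced libraries. Whether the 3 libraries of a group came from separate cultures is not stated in the sources used here, so that the p-values below measure the spread between these libraries, which may be technical.

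FGF ligands bind receptor tyrosine kinases at the cell surface and, through adaptor proteins, switch on RAS, RAF, MEK, and the kinase ERK. Sprouty proteins are recruited to the membrane after receptor activation and restrain the route from the receptor to ERK. Spred proteins carry the same C-terminal Sprouty domain and bring the RAS inhibitor neurofibromin to the membrane. Il17rd, also called Sef, is a transmembrane protein that binds FGF receptors and holds active MEK and ERK away from the nucleus. Many of these genes are themselves transcribed in response to ERK, which makes them feedback inhibitors, and in fat precursors FGF signaling is known to act on both growth and the choice to differentiate.

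The loci, on GRCm38 with GENCODE annotation, are each annotated as protein coding. Spry1 lies at chr3:37639947-37644598 on the plus strand and Spry2 at chr14:105891947-105896819 on the minus strand. Spred1 lies at chr2:117121374-117182279 and Spred2 at chr11:19924375-20024026, both on the plus strand, and Spred3 at chr7:29158829-29170411 on the minus strand. Il17rd lies at chr14:27038941-27107286 on the plus strand. The strand setting of the counting is not stated, and a pair of members share exonic bases with a gene on the opposite strand. Spry1 shares 710 of its 2906 exonic bases with Gm42922, which held 0 to 5 counts in any library, and Spred3 shares 202 of 6218 with Ggn, which held 20 to 97.

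The sequence before each start site is shown for Spry2 and Spred3, the members that rose whose windows held the octamer described next, and for Spry1 and Il17rd, the members that ended lower with FGF6. The windows are from RefSeq on GRCm38.p6, run from 250 bases before the RefSeq start to 50 bases after it, and are written 5′ to 3′ on the strand of the gene. A RefSeq window was at hand for 6 of the 7 members, all but Spry4, whose chromosome was left out of the windows searched. For Spred2, Spred3, and Il17rd the RefSeq start lies inside the gene as GENCODE draws it, and for Spred1 it lies before that gene. Capitals mark TGAATGAA or TCAATGAA on either strand, the octamers bound by Capicua, a repressor that ERK signaling is known to remove from its target genes, and none of the other motifs searched occurs in these 4 windows.
Spry2, chr14:105896770-105897069, minus strand: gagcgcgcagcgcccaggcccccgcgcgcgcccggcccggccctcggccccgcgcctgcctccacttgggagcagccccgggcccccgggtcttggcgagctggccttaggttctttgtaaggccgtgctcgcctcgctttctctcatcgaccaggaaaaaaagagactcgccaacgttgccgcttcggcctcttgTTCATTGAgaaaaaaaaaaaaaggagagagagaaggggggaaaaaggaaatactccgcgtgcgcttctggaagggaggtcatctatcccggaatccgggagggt
Spred3, chr7:29168598-29168897, minus strand: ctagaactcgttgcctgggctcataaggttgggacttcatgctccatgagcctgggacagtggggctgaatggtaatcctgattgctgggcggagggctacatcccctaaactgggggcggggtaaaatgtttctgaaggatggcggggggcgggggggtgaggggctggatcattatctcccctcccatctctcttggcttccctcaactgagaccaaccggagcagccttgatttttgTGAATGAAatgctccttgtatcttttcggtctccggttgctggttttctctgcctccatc
Spry1, chr3:37639697-37639996, plus strand: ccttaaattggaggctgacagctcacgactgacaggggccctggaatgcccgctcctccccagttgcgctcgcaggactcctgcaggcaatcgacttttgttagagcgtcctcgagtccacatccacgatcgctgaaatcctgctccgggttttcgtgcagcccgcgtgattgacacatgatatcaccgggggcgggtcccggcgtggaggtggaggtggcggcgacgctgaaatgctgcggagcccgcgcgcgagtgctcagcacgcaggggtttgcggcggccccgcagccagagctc
Il17rd, chr14:27038751-27039050, plus strand: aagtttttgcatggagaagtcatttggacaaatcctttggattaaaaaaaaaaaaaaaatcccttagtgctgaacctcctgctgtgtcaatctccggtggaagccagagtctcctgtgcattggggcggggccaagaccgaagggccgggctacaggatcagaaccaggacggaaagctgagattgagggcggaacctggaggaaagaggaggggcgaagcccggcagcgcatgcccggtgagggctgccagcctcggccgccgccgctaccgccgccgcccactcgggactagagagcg

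The Spry2 window held TCAATGAA on the opposite strand, read here as TTCATTGA, with its first base at -54 from the start. The Spred3 window held TGAATGAA at -10. Of the 6 windows, 2 held an octamer, against 2.03% of the 32851 RefSeq windows searched. These were the windows of full length, without the chromosome of Spry4. The ETS core CGGAAG, the site of the ETS factors that ERK phosphorylates, occurred in Spred1 at -17 on the plus strand and at 8 on the minus strand, and in Spred2 at -43 on the minus strand. That core is common and stood in 16.9% of the windows searched. Neither the AP-1 site TGANTCA, in 7.81% of windows, nor the cyclic AMP response element TGACGTCA, in 1.79%, was found in any member window. These matches describe letters within short windows, and binding was not measured.

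Levels are given in CPM, the counts of a gene per 1000000 counts of its library, with library totals corrected by trimmed mean of M-values (TMM) factors. A gene is said to have risen or fallen where the edgeR quasi-likelihood test over all 18 libraries gave a Benjamini-Hochberg adjusted p under 0.05, with the p-values adjusted over all 15071 genes. Each log2 fold change is followed by its standard error (SE). An exact permutation test of 3 libraries against 3 cannot go below p = 0.1 and was not used.

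FGF6 raised 5 of the 7 members at all 3 time points, Spry2, Spry4, Spred1, Spred2, and Spred3, and each of these was at least 2-fold higher each time. At 4 h 5 members were higher where 28.6% of all genes tested were higher, and 5 were at least 2-fold higher where 4.96% of genes were. At 8 h the background was 32.4% of genes higher and 7.39% at least 2-fold higher, and at 24 h it was 35.9% and 7.44%. Il17rd fell at all 3 time points and Spry1 fell at 24 h, against a background of 34.2% of genes lower at 4 h, 38.4% at 8 h, and 37.9% at 24 h. The median log2 fold change of the 7 members was 1.17 at 4 h, 1.59 at 8 h, and 1.80 at 24 h, and that of all genes was -0.05, -0.05, and -0.02. The split of calls over all genes depended on scaling at 4 h, where 45.5% of called genes were higher with TMM factors and 33.3% with library sizes alone, which moved the median of all genes by -0.10 on the log2 scale.

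**Figure D1:**
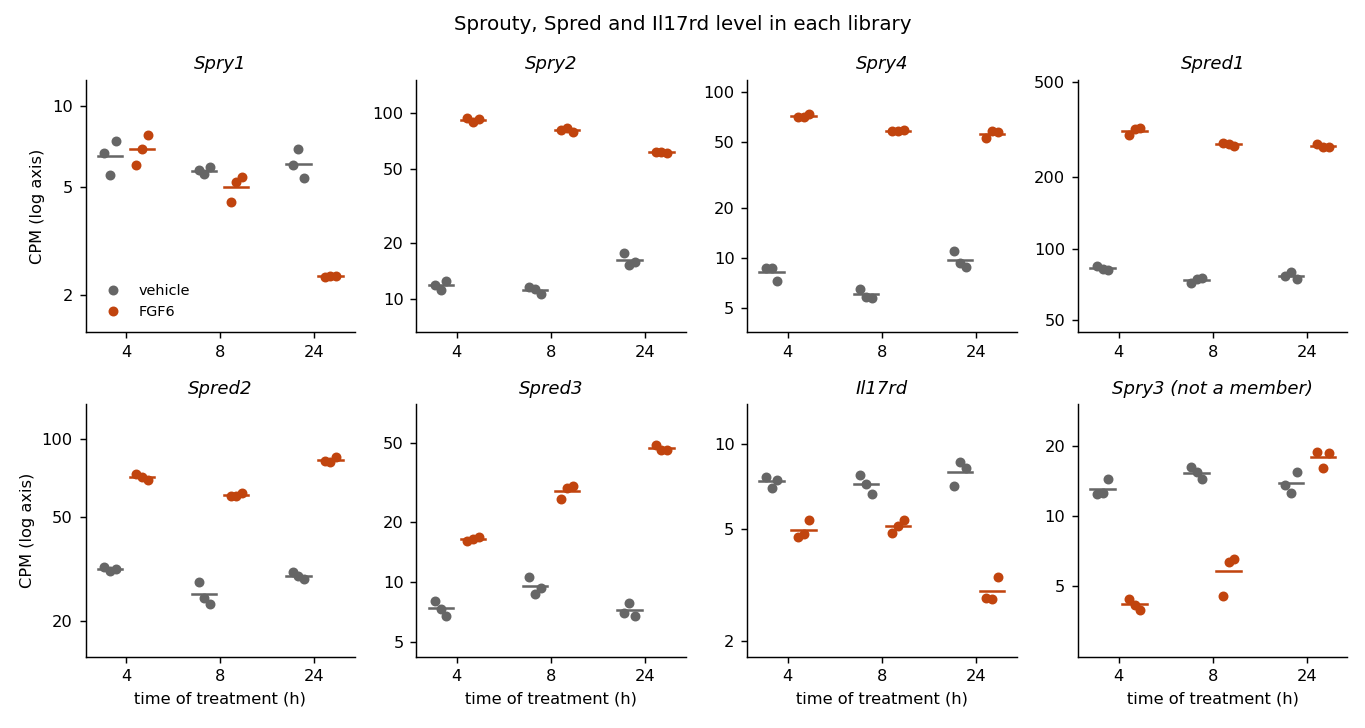
Level of each member in CPM in every library (log axis, points) against time of treatment, with vehicle in gray, FGF6 in orange, and a line at the mean of 3 libraries. Spry2, Spry4, and the 3 Spred genes lie above vehicle at every time, Il17rd lies below it, and Spry1 drops to 2.33 to 2.36 CPM at 24 h. The last panel shows Spry3, a relative that is not among the 7.

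Among the Sprouty genes that rose, Spry2 encodes a broadly expressed feedback inhibitor that binds the ubiquitin ligase Cbl and the adaptor Grb2. At 4 h Spry2 stood at 11.9, 11.2, and 12.5 CPM in the vehicle libraries and at 94.4, 89.2, and 92.6 CPM in the FGF6 libraries. At 8 h it stood at 11.6, 11.4, and 10.6 CPM in vehicle and at 80.7, 82.8, and 79.2 CPM with FGF6. At 24 h it stood at 17.7, 15.3, and 15.7 CPM in vehicle and at 61.4, 62.1, and 61.3 CPM with FGF6. The FGF6 libraries were thus highest at 4 h and the vehicle libraries highest at 24 h, and treated and vehicle libraries never overlapped. The log2 fold change of Spry2 was 2.96 (SE 0.053) at 4 h, 2.86 (SE 0.053) at 8 h, and 1.92 (SE 0.052) at 24 h, with adjusted p-values of 3.66e-24, 6.01e-24, and 4.9e-21. These are 7.77-fold, 7.24-fold, and 3.79-fold increases, and at 4 h Spry2 ranked 83 of 15071 genes by increase.

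Spry4, the other Sprouty gene that rose, encodes an inhibitor that binds the kinase TESK1. At 4 h it stood at 8.79, 8.69, and 7.28 CPM in vehicle and at 70.8, 70.5, and 73.9 CPM with FGF6. At 8 h the vehicle libraries held 6.53, 5.88, and 5.75 CPM and the FGF6 libraries 57.9, 58.4, and 59.2 CPM. At 24 h the vehicle libraries held 11.1, 9.38, and 8.87 CPM and the FGF6 libraries 53.0, 57.8, and 57.1 CPM. Spry4 was lowest at 8 h in vehicle and highest at 4 h with FGF6, and the groups never overlapped. Its log2 fold change was 3.12 (SE 0.066) at 4 h, 3.27 (SE 0.071) at 8 h, and 2.51 (SE 0.067) at 24 h, with adjusted p-values of 1.43e-22, 1e-22, and 3.34e-21. It was the most strongly raised member at 4 and 8 h by this measure, at 8.67-fold and 9.64-fold, and its effect at 8 h was not distinguishable from that at 4 h (difference 0.15, SE 0.104, adjusted p = 0.299).

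The 3 Spred genes all rose, with different courses. Spred1 encodes the neurofibromin-binding inhibitor whose loss in people causes Legius syndrome, and it was the most abundant member. At 4 h it stood at 84.5, 82.4, and 81.3 CPM in vehicle and at 299.1, 316.7, and 318.5 CPM with FGF6. At 8 h it stood at 71.5, 74.3, and 75.2 CPM in vehicle and at 278, 273.7, and 267.7 CPM with FGF6. At 24 h it stood at 77, 79.7, and 74.4 CPM in vehicle and at 272.9, 265.5, and 266.9 CPM with FGF6. Spred1 was the steadiest of the members that rose, with a log2 fold change of 1.91 (SE 0.035) at 4 h, 1.89 (SE 0.035) at 8 h, and 1.80 (SE 0.035) at 24 h. The adjusted p-values of Spred1 were 4.9e-24, 5.42e-24, and 6.03e-24, and its folds were 3.76, 3.71, and 3.48.

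Spred2 encodes a close relative of Spred1 that also holds back ERK. At 4 h it stood at 32.2, 31.1, and 31.6 CPM in vehicle and at 73, 71.1, and 69.7 CPM with FGF6. At 8 h it stood at 28.1, 24.4, and 23.3 CPM in vehicle and at 60.2, 60.3, and 61.8 CPM with FGF6. At 24 h it stood at 30.7, 29.7, and 28.8 CPM in vehicle and at 82.1, 81.3, and 84.9 CPM with FGF6. Both treatments were lowest at 8 h, and the FGF6 libraries were highest at 24 h. Its log2 fold change was 1.17 (SE 0.050) at 4 h, 1.26 (SE 0.051) at 8 h, and 1.47 (SE 0.050) at 24 h, with adjusted p-values of 1.63e-16, 3.65e-17, and 6.26e-19.

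Spred3 encodes the Spred protein that lacks a working KIT-binding domain and is the weakest ERK inhibitor of the group. At 4 h it stood at 8.01, 7.33, and 6.74 CPM in vehicle and at 16.1, 16.4, and 16.8 CPM with FGF6. At 8 h it stood at 10.6, 8.68, and 9.31 CPM in vehicle and at 26, 29.8, and 30.2 CPM with FGF6. At 24 h it stood at 7.01, 7.87, and 6.73 CPM in vehicle and at 48.8, 46.3, and 46.1 CPM with FGF6. Spred3 was the member whose treated level climbed at each step, and no FGF6 library of a later time overlapped an earlier one. Its log2 fold change was 1.16 (SE 0.084) at 4 h, 1.59 (SE 0.076) at 8 h, and 2.70 (SE 0.077) at 24 h, with adjusted p-values of 7.02e-12, 9.53e-16, and 1.64e-20. At 24 h Spred3, at 6.49-fold, had the largest fold change of the 7. Ggn, the gene on its opposite strand, stood at 1.19 ± 0.19 CPM in vehicle and 0.921 ± 0.254 CPM with FGF6 at 4 h, 2.80 ± 0.312 and 1.46 ± 0.228 CPM at 8 h, and 2.60 ± 0.192 and 2.52 ± 0.457 CPM at 24 h (SD, n = 3). It fell at 8 h (log2 fold change -0.95, SE 0.194, adjusted p = 0.000123), and its part in the counts of Spred3 was not tested.

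Spry1 and Il17rd ended lower than in vehicle, and both were scarce. In vehicle at 4 h their means were 6.55 and 7.36 CPM. Those of Spry4 (8.25 CPM) and Spred3 (7.36 CPM), which both rose, were near them. Spry1 encodes a Sprouty protein known to restrain RAS and ERK in fat and muscle precursors. At 4 h Spry1 stood at 6.68, 5.53, and 7.44 CPM in vehicle and at 6.06, 6.92, and 7.80 CPM with FGF6. At 8 h it stood at 5.78, 5.59, and 5.92 CPM in vehicle and at 4.43, 5.21, and 5.47 CPM with FGF6. At 24 h it stood at 6.03, 6.91, and 5.42 CPM in vehicle and at 2.33, 2.36, and 2.35 CPM with FGF6. The libraries overlapped at 4 h, lay side by side without overlap at 8 h, and lay apart at 24 h. The log2 fold change of Spry1 was 0.08 (SE 0.118, adjusted p = 0.581) at 4 h and -0.20 (SE 0.125, adjusted p = 0.156) at 8 h, and neither passed the test. At 24 h Spry1 fell by 1.39 on the log2 scale (SE 0.142, adjusted p = 2.55e-09), a 2.62-fold decrease. In RNA from whole cultures, fewer cells that hold a transcript and less of it in each cell cannot be told apart.

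Il17rd was below vehicle from the start. At 4 h it stood at 7.65, 6.95, and 7.48 CPM in vehicle and at 4.70, 4.78, and 5.36 CPM with FGF6. At 8 h it stood at 7.77, 7.18, and 6.64 CPM in vehicle and at 4.85, 5.11, and 5.38 CPM with FGF6. At 24 h it stood at 7.08, 8.63, and 8.20 CPM in vehicle and at 2.85, 2.82, and 3.38 CPM with FGF6. The groups did not overlap at any time, and the treated level changed little between 4 and 8 h before it dropped. The log2 fold change of Il17rd was -0.58 (SE 0.105) at 4 h, -0.50 (SE 0.104) at 8 h, and -1.40 (SE 0.113) at 24 h, with adjusted p-values of 3.39e-05, 0.000151, and 3.03e-11. Both Spry1 and Il17rd were at least 2-fold lower at 24 h, where 15.3% of all genes tested were. Their counts were the smallest of the 7, at 64 to 66 for Spry1 and 78 to 92 for Il17rd in the FGF6 libraries at 24 h.

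**Figure D2:**
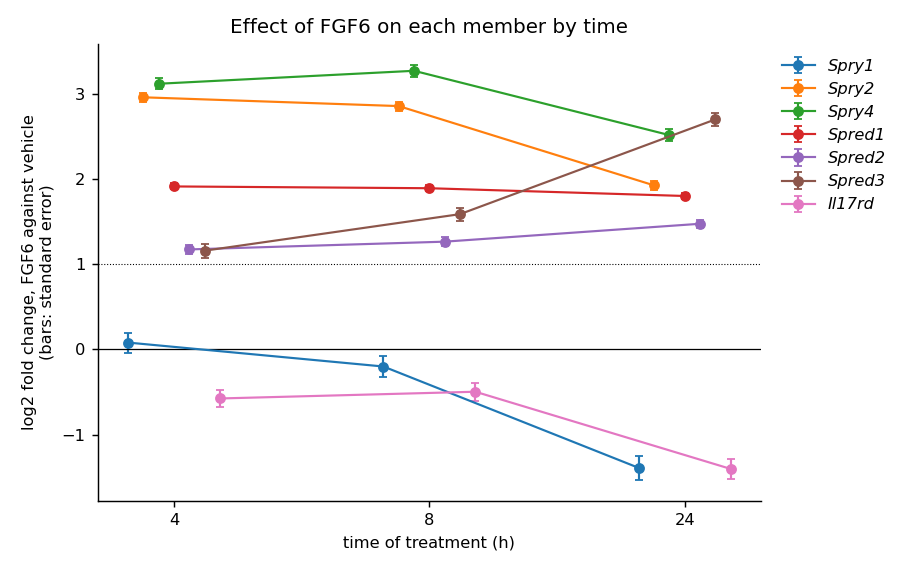
Log2 fold change of FGF6 against vehicle (points) with its standard error (bars) for each member at 4, 8, and 24 h, with points set slightly apart along the time axis. The dotted line marks 2-fold. Spry4 falls from 3.27 at 8 h to 2.51 at 24 h and Spry2 from 2.86 to 1.92, while Spred3 climbs from 1.16 to 2.70.

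Whether the effect of FGF6 itself differed between times was tested as an interaction, the difference of 2 log2 fold changes. Between 4 and 8 h the effect differed for 1 of 7 members, Spred3, where it did for 30.6% of all genes. The effect on Spred3 grew by 0.43 (SE 0.115, adjusted p = 0.0055). From 8 to 24 h the effect differed for 6 of 7 members, all but Spred1, where it did for 45.1% of all genes. From 4 to 24 h it also differed for 6 of 7, again all but Spred1, where it did for 53.5% of genes. The effect on Spred1 differed by -0.02 (SE 0.048, adjusted p = 0.785) from 4 to 8 h, by -0.09 (SE 0.048, adjusted p = 0.135) from 8 to 24 h, and by -0.11 (SE 0.048, adjusted p = 0.0523) from 4 to 24 h. The last of these passed without FGF6 4 h replicate 1 (-0.12, adjusted p = 0.0401), without Veh 4 h replicate 1 (-0.13, adjusted p = 0.0389), or without Veh 8 h replicate 1 (-0.11, adjusted p = 0.0493). With at least 10 counts in every library both of the later differences of Spred1 passed, at -0.12 (adjusted p = 0.0423) and -0.15 (adjusted p = 0.01).

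The members that rose moved in opposite ways between 8 and 24 h. The effect shrank by 0.93 (SE 0.076) for Spry2 and by 0.75 (SE 0.103) for Spry4, with adjusted p-values of 2.3e-10 and 1.41e-06. It grew by 1.11 (SE 0.111, adjusted p = 9e-09) for Spred3. It also grew for Spred2, by 0.21 (SE 0.072, adjusted p = 0.0198), a difference that was 0.12 with an adjusted p of 0.126 without Veh 8 h replicate 1, whose Spred2 level of 28.1 CPM was the highest of its group. The 2 members that fell moved further down, Spry1 by -1.19 (SE 0.191) and Il17rd by -0.91 (SE 0.156), with adjusted p-values of 1.35e-05 and 3.32e-05.

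The vehicle cells also changed with time, and the fold changes rest on them. From 4 to 8 h in vehicle 4 of 7 members differed, where 43.0% of all genes did. Spry4 fell by 0.45 (SE 0.089), Spred2 fell by 0.32 (SE 0.053), and Spred1 fell by 0.17 (SE 0.035), while Spred3 rose by 0.37 (SE 0.089). From 8 to 24 h in vehicle 4 of 7 differed, where 49.2% of genes did. Over that interval Spry4 rose by 0.69 (SE 0.088), Spry2 by 0.54 (SE 0.062), and Spred2 by 0.24 (SE 0.054), and Spred3 fell by 0.39 (SE 0.091). From 4 to 24 h in vehicle 3 of 7 differed, where 60.8% of genes did, namely Spry2 by 0.46 (SE 0.061), Spry4 by 0.25 (SE 0.083), and Spred1 by -0.10 (SE 0.035). The vehicle difference of Spry4 from 4 to 24 h did not pass without Veh 4 h replicate 3 (0.16, adjusted p = 0.102) without Veh 24 h replicate 1 (0.13, adjusted p = 0.197), or with library sizes alone (0.19, adjusted p = 0.0582), and that of Spred1 did not pass without Veh 4 h replicate 1 (-0.09, adjusted p = 0.0631). With library sizes alone Spred2 passed from 4 to 24 h in vehicle (-0.14, adjusted p = 0.0338). Spry1 and Il17rd passed in none of the 3 vehicle comparisons, with differences between -0.18 and 0.15.

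In the FGF6-treated cells 6 of 7 members differed from 4 to 8 h (48.2% of all genes did), 5 of 7 from 8 to 24 h (62.3%), and 7 of 7 from 4 to 24 h (71.2%). From 4 to 8 h Spry4 fell by 0.29 (SE 0.053), Spry1 fell by 0.46 (SE 0.124), and Spred3 rose by 0.80 (SE 0.071). From 8 to 24 h Spry2 fell by 0.39 (SE 0.045), Spry1 fell by 1.09 (SE 0.147), and Il17rd fell by 0.76 (SE 0.121). Over the same interval Spred3 rose by 0.72 (SE 0.065) and Spred2 by 0.45 (SE 0.047). Spry4 with FGF6 differed by -0.06 (SE 0.054, adjusted p = 0.325) from 8 to 24 h, while its vehicle level rose, and Spred1 with FGF6 differed by -0.03 (SE 0.033, adjusted p = 0.526).

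The library labelled Veh 24 h replicate 3 stood apart from its group. Its counts differed from those of the other 2 vehicle libraries at 24 h by a chi-square of 35.7 and 39.2 per degree of freedom, against 2.37 to 7.35 in the 16 other pairs of replicates. Features related to ribosomal RNA were high in it, with CT010467.1 at 10583 CPM against 148.2 and 141.1 CPM in the other 2. Without it the 24 h log2 fold changes were 2.50 for Spry4, 1.95 for Spry2, 1.82 for Spred1, 1.49 for Spred2, and 2.70 for Spred3. Those of Spry1 and Il17rd were then -1.42 and -1.35, and all 7 kept their calls, with a highest adjusted p of 3.69e-09. The differences in effect from 8 to 24 h were then -1.26 for Spry1, -0.95 for Spry2, -0.81 for Spry4, 0.19 for Spred2 (adjusted p = 0.0455), 1.07 for Spred3, and -0.89 for Il17rd, each still called. The calls in vehicle from 8 to 24 h and from 4 to 24 h also held, the closest being Spred1 from 4 to 24 h (-0.09, adjusted p = 0.0486). Library totals ranged from 24327816 to 33471980 counts.

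Levels of different genes were compared after division by exonic length, as CPM per kb. In vehicle at 4 h the order was Spred1 (12.2), Spred2 (6.84), Spry2 (5.68), Spry1 (2.25), Spry4 (1.74), Spred3 (1.18), and Il17rd (0.67 CPM per kb), and the libraries of no neighbors overlapped. With FGF6 at 4 h it was Spred1 (45.9), Spry2 (44.1), Spred2 (15.4), Spry4 (15.1), Spred3 (2.64), Spry1 (2.38), and Il17rd (0.45 CPM per kb). In that order the libraries of Spred1 and Spry2, of Spred2 and Spry4, and of Spred3 and Spry1 overlapped. At 8 h Spred1 and Spry2 again overlapped with FGF6, at means of 40.3 and 38.8 CPM per kb, while at 24 h they lay apart at 39.6 and 29.5. Spred2 and Spry2 overlapped in vehicle at 8 h (5.47 and 5.35 CPM per kb), and Spry1 and Spry4 in vehicle at 24 h (2.11 and 2.06 CPM per kb). The order of the means with FGF6 was the same at all 3 times, with Spred1 first and Il17rd last.

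Summed over the 7 members, the level per length was 30.6 ± 0.744 CPM per kb in vehicle and 126 ± 1.57 CPM per kb with FGF6 at 4 h (SD, n = 3). At 8 h the sum was 27.1 ± 0.716 and 111 ± 1.00 CPM per kb, and at 24 h it was 31.6 ± 1.2 and 107 ± 0.263 CPM per kb. The treated libraries lay above the vehicle libraries each time, at 107 or more against at most 32.7. The makeup of that sum differed as well. Spry2 made up 18.6% of it in vehicle and 35.0% with FGF6 at 4 h, and Spred1 made up 39.9% and 36.4%. At 4 h Spry1 made up 7.37% in vehicle and 1.89% with FGF6, though its own level was not called different there. At 24 h it made up 6.65% and 0.752%. Spred3 made up 3.87% and 2.1% at 4 h, though its own level rose, and 3.66% and 7.04% at 24 h. A share of the sum thus depends on the other members as well.

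**Figure D3:**
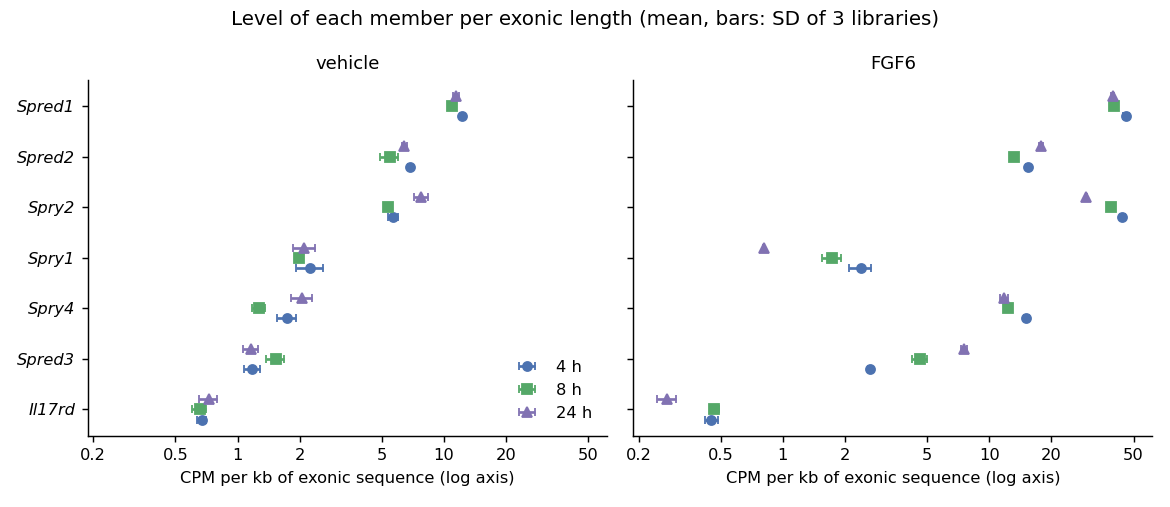
Level of each member per kb of exonic sequence (log axis), with vehicle on the left and FGF6 on the right. Points are means of 3 libraries, bars are SDs, and symbols mark time. Spred1 is the highest in all 6 groups and Il17rd the lowest, and Spry2 rises from 5.68 to 44.1 CPM per kb at 4 h.

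Relatives of the members were looked at next. Spry3, the fourth Sprouty gene, lies on an unplaced scaffold of the assembly and is not among the 7. At 4 h it stood at 12.4, 12.5, and 14.5 CPM in vehicle and at 4.36, 4.14, and 3.94 CPM with FGF6, and at 24 h at 13.6, 12.6, and 15.4 CPM in vehicle and 19, 16.2, and 18.7 CPM with FGF6. Its groups never overlapped, but the sign turned. The log2 fold change of Spry3 was -1.66 (SE 0.119) at 4 h, -1.42 (SE 0.110) at 8 h, and 0.38 (SE 0.096) at 24 h, with adjusted p-values of 5.69e-12, 1.56e-11, and 0.00105. Its effect differed by 1.80 (SE 0.146, adjusted p = 2.14e-10) between 8 and 24 h. The 4 Sprouty genes thus showed rises of Spry2 and Spry4 throughout, a late fall of Spry1, and an early fall of Spry3.

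Il17rd belongs by sequence to the interleukin 17 receptors. Of the 4 others listed, Il17rb and Il17re had too few counts to be tested. Il17rc, a receptor subunit, fell at each time, by 0.55 (SE 0.052), 0.71 (SE 0.052), and 1.72 (SE 0.054) on the log2 scale. Il17ra, the shared receptor subunit, rose by 0.54 (SE 0.036) at 4 h and 0.23 (SE 0.036) at 8 h, and fell by 1.05 (SE 0.037) at 24 h. Il17rd and Il17rc were the 2 of this group that were lower at every time, and all 3 tested were lower at 24 h. Of all genes tested, 34.2% were lower at 4 h, 38.4% at 8 h, and 37.9% at 24 h.

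Genes of the pathway on which the members act were taken from 3 further lists. Of 13 binding partners and regulators of Sprouty and Spred proteins, all tested, 7 rose and 4 fell at 4 h, 7 rose and 3 fell at 8 h, and 9 rose and 3 fell at 24 h. Of all genes, 28.6% rose and 34.2% fell at 4 h, 32.4% and 38.4% at 8 h, and 35.9% and 37.9% at 24 h. The median log2 fold change was 0.18, 0.13, and 0.37. Cblb, a ubiquitin ligase of the Cbl family, rose by 1.44 (SE 0.048), 1.61 (SE 0.049), and 1.26 (SE 0.049), and Cbl rose by 0.43 (SE 0.057), 0.39 (SE 0.058), and 0.53 (SE 0.062). Cav1, the caveolar protein that binds Sprouty, fell by 0.27 (SE 0.029), 0.82 (SE 0.030), and 1.65 (SE 0.030). Ptpn11, the phosphatase SHP2 that strips phosphate from Sprouty, had a log2 fold change of -0.10 (adjusted p = 0.00527) at 4 h, -0.02 (adjusted p = 0.554) at 8 h, and -0.23 (adjusted p = 7.72e-08) at 24 h.

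Of 18 genes of the core route from receptor adaptors to ERK, all tested, 7 rose and 5 fell at 4 h, 7 rose and 8 fell at 8 h, and 10 rose and 6 fell at 24 h. The background shares are those just given for all genes, 28.6% higher and 34.2% lower at 4 h, 32.4% and 38.4% at 8 h, and 35.9% and 37.9% at 24 h. The median log2 fold change was -0.04, 0.08, and 0.23, and that of all genes was -0.05, -0.05, and -0.02. Most of these changes were under 2-fold. Rasa1, a RAS GTPase-activating protein, rose by 1.35 (SE 0.033), 1.86 (SE 0.033), and 1.96 (SE 0.033). Ksr1, a scaffold for RAF, MEK, and ERK, fell by 0.71 (SE 0.045), 1.13 (SE 0.046), and 1.63 (SE 0.049), and Gab1, a docking adaptor, fell by 1.00 (SE 0.051), 1.09 (SE 0.050), and 1.28 (SE 0.052).

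Of 8 genes known as transcriptional output of ERK, 7 were tested and all 7 rose at least 2-fold at each time, where 4.96%, 7.39%, and 7.44% of all genes did at 4, 8, and 24 h. The median log2 fold change was 2.15 at 4 h, 3.18 at 8 h, and 3.39 at 24 h, and Epha4 had too few counts. Dusp6, the phosphatase that inactivates ERK, rose by 3.91 (SE 0.063), 4.68 (SE 0.068), and 4.93 (SE 0.071). Etv4, an ETS factor, rose by 2.35 (SE 0.087), 4.42 (SE 0.099), and 5.01 (SE 0.092). Phlda1 rose by 2.13, 2.37, and 2.48, and the receptor tyrosine kinase Epha2 by 1.35, 2.26, and 1.88. Set beside these, Spry2 and Spry4 had smaller log2 fold changes at 24 h than at 4 h, while Dusp6 and Etv4 had larger ones. The mean level of Dusp6 with FGF6 was still lower at 24 h (327.3 CPM) than at 4 h (463.5 CPM). Its vehicle mean went from 30.85 to 10.77 CPM between these times. Etv4 with FGF6 went from 23.48 to 68.87 CPM, and in vehicle from 4.585 to 2.105 CPM. RefSeq windows were held for 4 of the 8 output genes, and 1 of them, Epha2, held the octamer TGAATGAA, at -15.

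**Figure D4:**
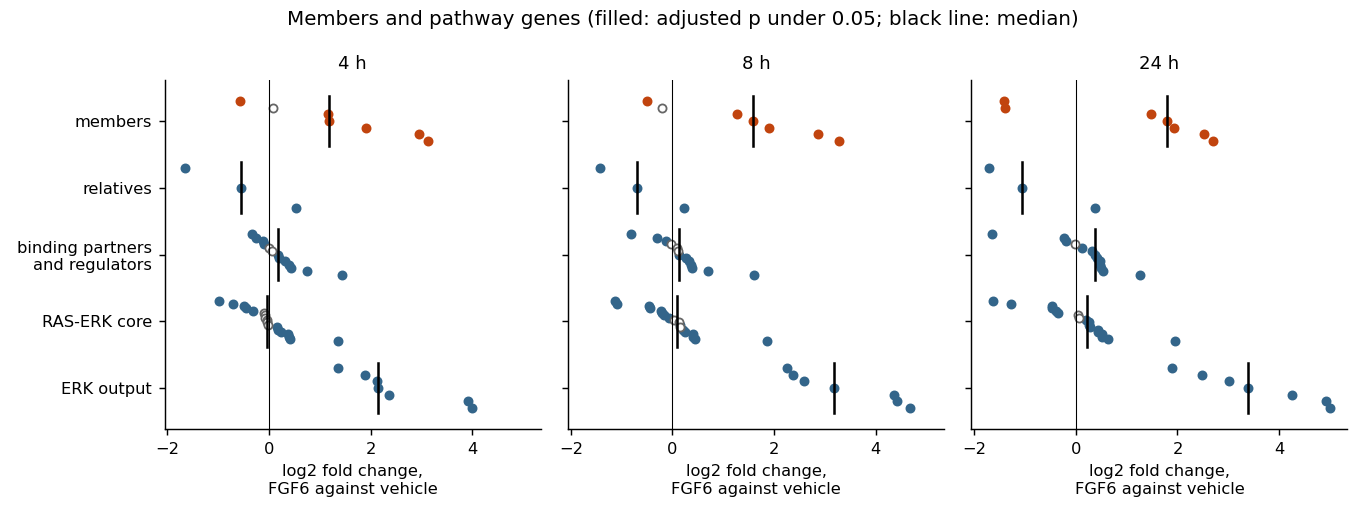
Log2 fold change of FGF6 against vehicle for each tested gene of the members and of 4 pathway lists at 4, 8, and 24 h, with filled points for an adjusted p under 0.05, open points for the others, and a black line at the median. The 7 tested ERK output genes lie at 1.35 or above at every time. The median of the core genes is -0.04 at 4 h and 0.23 at 24 h.

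The genes whose log2 CPM followed each member most closely over the 18 libraries were named by Pearson correlation among 12268 genes with a mean of at least 1 CPM. These correlations describe libraries that share treatment, time, and scaling, and carry no test. Spry2 was followed most closely by Emp1, Ptpre, and Lrig1 (r = 0.993, 0.991, and 0.990) and Spry4 by Ptpre, Tgif1, and Sox9 (0.997, 0.994, and 0.994). Spred1 was followed by Sox9, Ptges, and Iffo2 (0.997, 0.996, and 0.995), and Spred2 by Elk3, Ppp1r18, and Rnf11 (0.996, 0.993, and 0.992). Ptges encodes a prostaglandin E synthase and Sox9 a transcription factor of mesenchymal progenitors. Spred3, the late riser, was followed by Map2k6, Mdh2, and Ssx2ip (0.991, 0.988, and 0.987). Spry1 was followed by Pappa, C3, and Nid1 (0.969, 0.967, and 0.964) and Il17rd by Mlycd, Rspo2, and St6galnac2 (0.977, 0.976, and 0.970), a different set from that of any member that rose. With Spearman correlation 1 of the 3 was also among the closest 3 for Spry2 and for Spred2 and 0 for the other 5 members, so the ranking among close genes depends on the measure.

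The label of the cells was checked against marker genes. All 8 preadipocyte and stromal markers were expressed, led by Col1a1, and their summed level was 3976 to 6454 CPM in the vehicle libraries and 1455 to 3133 CPM in the FGF6 libraries. Of 6 markers of mature brown adipocytes Fabp4 carried nearly all of the sum, which was 96.4 to 178 CPM in vehicle and 64.0 to 97.7 CPM with FGF6, and Cidea held at most 1 count in any library. The summed leukocyte markers (5 genes) ranged over 7.60 to 15.7 CPM in vehicle and 3.36 to 19.1 CPM with FGF6, with Adgre1 and Ptprc at 2 counts or fewer. The endothelial sum (4 genes) was 0.377 to 1.67 CPM and 1.96 to 5.65 CPM, with Pecam1 at 7 counts or fewer. The skeletal muscle sum (4 genes) was 5.04 to 8.33 CPM and 1.18 to 4.23 CPM, with Pax7 at 1 count or fewer. Other markers of these lists held more. Among the leukocyte markers, Cd68 held 82 to 523 counts and Csf1r 9 to 128. The endothelial marker Cdh5 held 0 to 114 counts, and the muscle markers Myog and Myod1 held 8 to 153 and 25 to 111. The stromal, adipocyte, and muscle sums were thus lower with FGF6, with overlap between libraries in the adipocyte sum alone, and the endothelial sum was higher. Not every marker moved with its sum. Mean Cd34 was 12.9 CPM in vehicle and 22.7 CPM with FGF6, against 2953 and 1075 CPM for Col1a1. Among the adipocyte markers, mean Ucp1 was 0 CPM in vehicle and 0.246 CPM with FGF6, at 25 counts or fewer, against 117 and 76.7 CPM for Fabp4. Mean Tek was 0.202 and 0.0286 CPM, against 0.0687 and 1.71 CPM for Cdh5. The part of these markers in the results on the members was not tested.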

How the data were processed

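RNA from 18 libraries of mouse brown preadipocytes was measured by sequencing, and all 18 entered the fit. The authors mapped reads to GRCm38 with STAR, used featureCounts of Subread for gene counts, and deposited these raw counts without normalization. Versions, annotation release, strand setting, and treatment of multimapping reads are not given in the sources used here. Groups and replicate numbers came from the sample titles, and the dose from the study's supplement. Genes were kept by filterByExpr with the 6 groups, scaled by TMM factors, and tested with the quasi-likelihood model of edgeR 4.0.16 (R 4.3.3), with 1 mean per group and no covariate. The standard error is that implied by the F statistic. The method was also run on simulated counts in which few genes were changed, at 4 h alone. Most genes were called in these data, so that run could not check the scaling or the calls at such a share. Symbols came from GENCODE M21 (98.5% of identifiers matched). Alternatives were limma 3.58.1 with voom (the study's method), DESeq2 1.42.0, other scalings, filters, libraries, a replicate block, and the study's threshold of 0.25. The counts of members that fell were added to the alternatives after seeing the data. The members and lists were chosen with earlier results of these data known. Named genes were all members, the 2 genes of each list with the largest and the 2 with the smallest log2 fold change at 24 h (all of a list of 5 or fewer), and the 3 closest genes of each member; 1 gene that this rule names is not reported here. CT010467.1 and Ggn were named after their values were seen. Same-numbered vehicle and FGF6 libraries did not deviate together (Pearson r from -0.028 to 0.049 over 9 pairs), so the numbers were not used as pairs.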

Additional observations from a re-analysis of the deposited data

Results flagged for a closer look

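The effect of FGF6 differed between time points, by the interaction test of edgeR over all 18 libraries at an adjusted p under 0.05, in 13 of the 21 comparisons made for the 7 members, where 30.6% of all genes differed from 4 to 8 h, 45.1% from 8 to 24 h, and 53.5% from 4 to 24 h. From 4 to 8 h the log2 fold change of Spred3 changed by 0.43. From 8 to 24 h it changed by -1.19 for Spry1, -0.93 for Spry2, -0.75 for Spry4, 0.21 for Spred2, 1.11 for Spred3, and -0.91 for Il17rd. From 4 to 24 h it changed by -1.47 for Spry1, -1.03 for Spry2, -0.60 for Spry4, 0.30 for Spred2, 1.54 for Spred3, and -0.83 for Il17rd. The comparisons share libraries and are not independent of each other.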

How the results depend on the processing

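Over 9 alternatives and 18 fits that each left out 1 library, 645 of 648 counts stayed within 1.5 times, and 564 of 567 values of the members' FGF6 against vehicle fold changes kept their direction and side of the threshold. Over all genes, those changed at 8 h in either direction numbered 10664 in the main fit and 9471 to 12380 over all fits. At an adjusted p of 0.25, 2 members were lower at 8 h (Spry1 joined Il17rd) and 2 differed in effect between 4 and 8 h. Leaving out single libraries gave 1 to 2 for the latter, the 2 arising without Veh 8 h replicate 1, where Spred2 differed by 0.18 with an adjusted p of 0.0399. Values that turned their sign were all at most 0.04 in size, and none was called. With library sizes alone these were Spry1 at 4 h (-0.022), the interaction of Spred1 from 4 to 8 h (0.016), and Spred1 in vehicle from 8 to 24 h (-0.012). With single libraries left out, the ranges were -0.030 to 0.190 for Spry1 at 4 h, -0.044 to 0.012 for the Spred1 interaction from 4 to 8 h, and -0.204 to 0.013 and -0.006 to 0.170 for Spry1 in vehicle from 4 to 24 h and from 8 to 24 h. They were -0.115 to 0.040 for Spred3 in vehicle from 4 to 24 h and -0.089 to 0.022 for Il17rd in vehicle from 4 to 8 h. The Spred1 interaction from 4 to 24 h passed with limma (-0.11, adjusted p = 0.0457) with DESeq2 (-0.12, adjusted p = 0.0406), with at least 10 counts in every library (-0.15, adjusted p = 0.01), and without 3 single libraries, and that from 8 to 24 h passed with at least 10 counts in every library (-0.12, adjusted p = 0.0423). In vehicle from 4 to 24 h, library sizes alone lost the call of Spry4 (0.19, adjusted p = 0.0582) and gained that of Spred2 (-0.14, adjusted p = 0.0338). The replicate block, which the pairing check did not call for, changed 0 of 84 member calls and gave 5 members higher at each time, for example 1.92 for Spry2 at 24 h. The cause of these shifts was not tested. With FGF6 at 24 h, Spry1 and Il17rd rested on 64 to 92 counts a library.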
